A study of Homo sapiens with 8 samples.

Results

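The cytosolic HSP40 genes of the DNAJA and DNAJB families were followed here in A375 melanoma cells exposed to an HSP90 inhibitor and depleted of the transcription factor HSF1. The members were DNAJB1, DNAJB4, DNAJB5, DNAJB6, DNAJB2, DNAJA1, DNAJA2, DNAJA3, DNAJA4 and DNAJC7. They were chosen by gene name, with earlier results of these data known. By their known roles 2 of them fit the heading loosely, since DNAJA3 works in mitochondria and DNAJC7 is a class C protein. They are 10 of the 19775 genes that the array represents by a probe set with a single gene symbol. They have 21 such probe sets (short stretches of a transcript read together as 1 signal), of which 15, from 9 genes, were bright enough to be tested.

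The data were 8 HG-U133 Plus2 arrays, 2 for each of 4 groups of A375 cells, an established human melanoma line. The first group was shNTC cells, which carry a hairpin with no target, given 0.1% DMSO, and the second was shNTC cells given Doxycycline and 0.1% DMSO. The third was shHSF1 cells, which carry a hairpin against HSF1 named sh1999 in the sample titles, given 100 nM NVP-HSP990, and the fourth was shHSF1 cells given Doxycycline and 100 nM NVP-HSP990. Both hairpins were in a Tet-On vector, so that Doxycycline, at 100 ng/ml, switches them on, in infected cells selected with puromycin. NVP-HSP990 is an inhibitor of the chaperone HSP90. All cells were cultured for 3 days before the compound or DMSO was added for 3 h. The protocol text gives Doxycycline for all cells, but the titles mark 4 of the 8 arrays as controls without it, and the groups follow the titles. The groups are written below as shNTC DMSO, shNTC Dox DMSO, shHSF1 HSP990 and shHSF1 Dox HSP990. Whether a group's 2 arrays are 2 cultures is not given in the labels, and the p-values therefore cover the spread between arrays alone. The inhibitor was given to shHSF1 cells alone and DMSO to shNTC cells alone, so inhibitor and hairpin line cannot be told apart. The other combinations, inhibitor on shNTC and DMSO on shHSF1, were not analysed here.

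HSP40 proteins, also called J-domain proteins, bind unfolded protein and hand it to HSP70, whose ATPase they switch on through their J domain. Class A members (DNAJA) have a zinc-binding region beside the J domain, and class B members (DNAJB) lack it. Nucleotide exchange factors such as BAG3 and the HSP110 proteins then open HSP70 again and let the client go. HSF1 is the main transcription factor of the heat shock response. It is held inactive in part by HSP90, and when active it binds heat shock elements, which are inverted repeats of the bases GAA, in the promoters of chaperone genes.

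Each array had been scaled to a trimmed mean signal of 150, and the array medians lay between 10.6 and 14.2. The ratio of the 3′ to the 5′ ACTB probe set, a sign of RNA quality, ran from 4.73 to 18.9 on 7 arrays and was 46.8 on shNTC Dox DMSO array 2. Of 8 melanoma markers, MITF, SOX10, S100B, S100A1 and VIM reached the median of their arrays, while the pigment genes MLANA, PMEL and TYR stayed at signals of 5.8 or lower. No prostate or colon epithelial marker was tested, since all were dim. The HSF1 probe set 202344_at gave 38.2 and 47.3 in shNTC DMSO, 36.6 and 47.9 in shNTC Dox DMSO, 99 and 42.5 in shHSF1 HSP990, and 5.5 and 7.3 in shHSF1 Dox HSP990. It was lowest in both arrays of the induced hairpin, and against shHSF1 HSP990 it fell by 1.87 in log2 signal (SE 0.291, limma adjusted p = 0.0116).

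The promoters of the members differ in the repeats that HSF1 is known to bind, and the stretches shown are a selection of the matches in the genes whose signal moved, together with DNAJB6. The search used 300-base windows from RefSeq on GRCh38.p14, from 250 bases before to 50 after each start, 16 of them from the 10 members and 35116 in all. The letters searched were GAANNTTC, TTCNNGAA and the longer GAANNTTCNNGAA, which contains both of the shorter motifs, on both strands. GAANNTTC was in 6.77% of all windows and in 5 member windows, from DNAJB1, DNAJB6, DNAJA1 and DNAJA4. The DNAJA4 matches, GAAGGTTC and GAAGCTTC, have the same letters as those in the DNAJB1 stretch below. DNAJA4, whose stretch is not shown, had signals at the limit of detection. TTCNNGAA was in 7.74% of all windows and in 3 member windows, from DNAJB4, DNAJB6 and DNAJA1. The longer motif was in 0.49% of all windows and in a window each of DNAJB6 and DNAJA1. In the stretches below, written 5′ to 3′ on the gene's strand, capitals mark the match. The DNAJB1 stretch lies at chr19:14518398-14518504 on the minus strand, bases -107 to -1 from a RefSeq start inside the gene's span. The DNAJB4 stretch lies at chr1:78004811-78004888 on the plus strand, bases -128 to -51 from a RefSeq start inside that gene's span. The DNAJB6 stretch lies at chr7:157336843-157336925 on the plus strand, bases -161 to -79 from the start. The DNAJA1 stretch lies at chr9:33025268-33025297 on the plus strand and runs from base -5 to base 25, so its match lies in transcribed sequence.
DNAJB1: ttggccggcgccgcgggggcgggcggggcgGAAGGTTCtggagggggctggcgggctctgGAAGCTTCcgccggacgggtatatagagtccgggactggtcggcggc
DNAJB4: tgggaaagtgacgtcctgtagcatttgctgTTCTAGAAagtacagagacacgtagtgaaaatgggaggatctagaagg
DNAJB6: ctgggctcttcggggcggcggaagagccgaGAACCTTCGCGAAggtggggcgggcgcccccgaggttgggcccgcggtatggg
DNAJA1: gccgggcgGAACTTTCCAGAAcgctcggtg
A match of letters is a description of the sequence and not a measured HSF1 site.

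DNAJB1, DNAJB4 and DNAJA1 were the HSP40 genes with mRNA called higher in shHSF1 HSP990 than in shNTC DMSO and lower again in shHSF1 Dox HSP990. The comparison for the inhibitor set shHSF1 HSP990 against shNTC DMSO, and that for the knockdown set shHSF1 Dox HSP990 against shHSF1 HSP990. The words "with the inhibitor" and "with the knockdown" name these comparisons. The first differs in hairpin line as well as in compound. For the second, Doxycycline under the inhibitor without the HSF1 hairpin was not analysed here. Both comparisons use the 2 shHSF1 HSP990 arrays, so a high signal there enters each. A probe set was called at a limma adjusted p under 0.05 over all 24631 tested probe sets. With the inhibitor 5 of the 15 tested member probe sets were called, all higher, where 0.134% of all tested probe sets were called, 0.126% higher and 0.00812% lower. With the knockdown 6 of 15 were called, all lower, where 1.88% of all were called, 0.536% higher and 1.34% lower. Since the members were chosen with earlier results of these data known, these shares describe the list and are not independent support. Without shNTC Dox DMSO array 2 the counts were 5 and 7. The inhibitor count fell to 1 without shNTC DMSO array 1 or 2 or shHSF1 HSP990 array 2, and the knockdown count to 1 without shHSF1 HSP990 array 2 or shHSF1 Dox HSP990 array 1. The median log2 change of the 15 was 0.37 with the inhibitor and -0.56 with the knockdown, beside 0.0028 and 0.0061 over all tested probe sets. The summed signal of 12 hepatocyte marker probe sets was also higher with the inhibitor. It was 63.2 to 72.5 in shHSF1 HSP990, 29.6 to 38.6 in shNTC DMSO and 41.6 to 51.3 in shNTC Dox DMSO. Of the 12 only AFP 204694_at was tested, with 33.4 and 19.5 in shHSF1 HSP990 against 14.2 and 11.1 in shNTC DMSO, and it was not called. The others stayed at 14.2 or lower, with ALB at 4.8 or lower throughout. The part of this sum in the result was not tested. In bulk RNA, fewer cells of a type and less RNA per cell cannot be told apart.

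DNAJB1, the class B HSP40 long known as a heat-inducible partner of HSP70, rose with the inhibitor and fell with the knockdown on both of its probe sets. Its gene lies at chr19:14514769-14560391. The probe set 200664_s_at gave signals of 394.2 and 444.6 in shNTC DMSO, 346.4 and 346 in shNTC Dox DMSO, 2142.4 and 2292.3 in shHSF1 HSP990, and 442.1 and 459 in shHSF1 Dox HSP990. Both shHSF1 HSP990 arrays stood far above the other 6, which lay close together. The rise was 2.36 on the log2 scale, or 5.14-fold (95% interval 4.09 to 6.44, adjusted p = 0.000142). With the knockdown the signal fell by 2.26, and was 4.79-fold lower (95% interval 3.81 to 6.01, adjusted p = 0.00013). It was the only member probe set that kept both calls with each of the 8 arrays left out in turn.

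**Figure D1:**
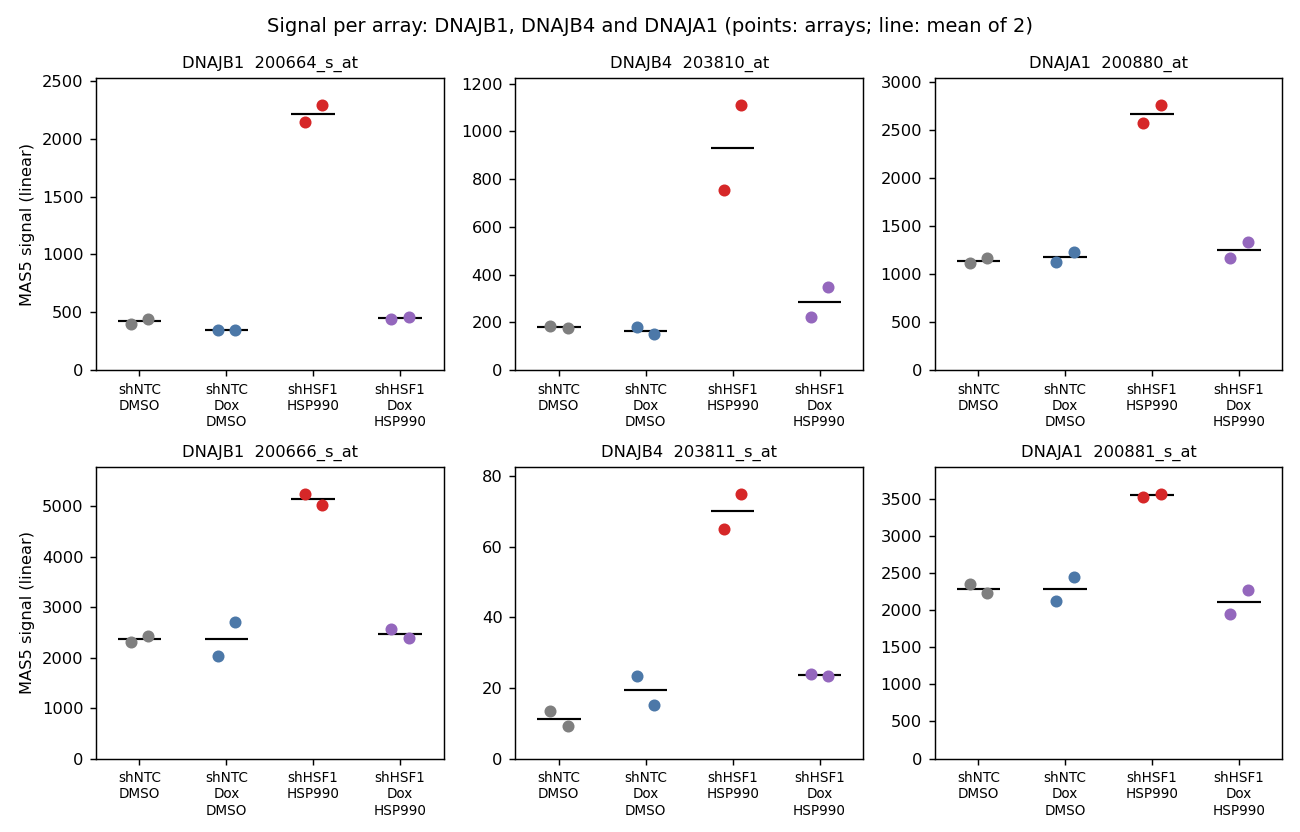
MAS5 signal (linear axis from 0) on each of the 8 arrays for both probe sets of DNAJB1, DNAJB4 and DNAJA1, by group. Points are arrays and lines the mean of 2 arrays. In all 6 panels both shHSF1 HSP990 arrays lie above the other 6.

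The second DNAJB1 probe set, 200666_s_at, moved by less. It gave 2307.7 and 2427.5 in shNTC DMSO, 2033.3 and 2706.6 in shNTC Dox DMSO, 5252.1 and 5026.4 in shHSF1 HSP990, and 2559.7 and 2392.9 in shHSF1 Dox HSP990. The shHSF1 HSP990 arrays were again the highest, and the other groups overlapped. The rise was 2.16-fold (95% interval 1.66 to 2.81, adjusted p = 0.0483), close to the threshold. That call was lost in 7 of the 13 other settings that kept all arrays: 1 or 64 added before the log, no filter, a stricter filter, median centring, no trend in the variances and the methods' t-test (adjusted p from 0.0532 to 0.746). With the knockdown the signal was 2.07-fold lower (95% interval 1.59 to 2.69, adjusted p = 0.0143). The rise kept its call only without either shNTC Dox DMSO array, and the fall lost it when each of the 4 shHSF1 arrays in turn was left out (adjusted p from 0.00535 to 0.726 and from 0.00256 to 0.152 with an array left out).

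DNAJB4, a class B protein close to DNAJB1 in its build, moved in the same directions on both of its probe sets. The gene lies at chr1:77979175-78017964. The probe set 203810_at gave 183.1 and 177.5 in shNTC DMSO, 178.2 and 149.9 in shNTC Dox DMSO, 753.3 and 1110.6 in shHSF1 HSP990, and 223 and 349.1 in shHSF1 Dox HSP990. The 2 shHSF1 HSP990 arrays differed from each other more than those of DNAJB1 did, and both still stood above the rest. The rise was 4.74-fold (95% interval 3.26 to 6.89, adjusted p = 0.00625), and with the knockdown the signal was 3.15-fold lower (95% interval 2.17 to 4.58, adjusted p = 0.00849). Without shNTC DMSO array 1 or 2 or shHSF1 HSP990 array 2 the rise was not called, and without that last array or shHSF1 Dox HSP990 array 1 the fall was not (adjusted p from 0.00479 to 0.117 and from 0.0134 to 0.0588 with an array left out). Fitted on the 4 arrays of the comparison alone, neither DNAJB4 probe set kept its fall past the threshold (adjusted p = 0.0659 for 203810_at and 0.0701 for 203811_s_at). The other DNAJB4 probe set, 203811_s_at, was dim, with 13.5 and 9.2 in shNTC DMSO, 23.5 and 15.2 in shNTC Dox DMSO, 65.1 and 75 in shHSF1 HSP990, and 24 and 23.5 in shHSF1 Dox HSP990. Its rise of 1.66 on the log2 scale (adjusted p = 0.012) and its fall by 1.11 (adjusted p = 0.0208) depend on the value of 16 added to each signal before the log, since the DMSO signals were near the array medians. The rise was 2.54 with 1 added and 0.83 with 64 added, and the fall -1.52 and -0.61, with the fall not called with 1 added (adjusted p = 0.0549). With no filter on dim probe sets neither was called (adjusted p = 0.0681 and 0.07). The rise lost its call when either shNTC DMSO or either shHSF1 HSP990 array was left out, and the fall when each of the 4 shHSF1 arrays in turn was left out (adjusted p up to 0.268 and 0.144).

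DNAJA1, the most studied class A HSP40 of the cytosol, moved the same way as DNAJB1 on the probe set 200880_at. The gene lies at chr9:33025273-33039907. The probe set 200880_at gave 1116.1 and 1165.1 in shNTC DMSO, 1128 and 1226.8 in shNTC Dox DMSO, 2571.7 and 2763.3 in shHSF1 HSP990, and 1165.5 and 1337.4 in shHSF1 Dox HSP990. The shHSF1 HSP990 arrays alone stood apart from the other 6. The rise was 2.32-fold (95% interval 1.84 to 2.92, adjusted p = 0.0143), and with the knockdown the signal was 2.12-fold lower (95% interval 1.68 to 2.67, adjusted p = 0.00618). The rise lost its call when either shNTC DMSO or either shHSF1 HSP990 array was left out, and the fall without shHSF1 HSP990 array 2 or shHSF1 Dox HSP990 array 1 (adjusted p up to 0.307 and 0.0702). The probe set 200881_s_at gave 2346 and 2226.5 in shNTC DMSO, 2120.5 and 2447.6 in shNTC Dox DMSO, 3522.5 and 3566.1 in shHSF1 HSP990, and 1949.8 and 2266.3 in shHSF1 Dox HSP990. The shHSF1 HSP990 arrays were again the highest, with a 1.55-fold difference with the inhibitor that was not called (95% interval 1.22 to 1.97, adjusted p = 0.431) and a fall with the knockdown that was (1.68-fold lower, 95% interval 1.32 to 2.14, adjusted p = 0.0427). That call held only without either shNTC Dox DMSO array (adjusted p from 0.0149 to 0.255 with an array left out), and it was lost with no filter, after median centring (adjusted p = 0.0896 in both) and with no trend in the variances (0.0624).

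**Figure D2:**
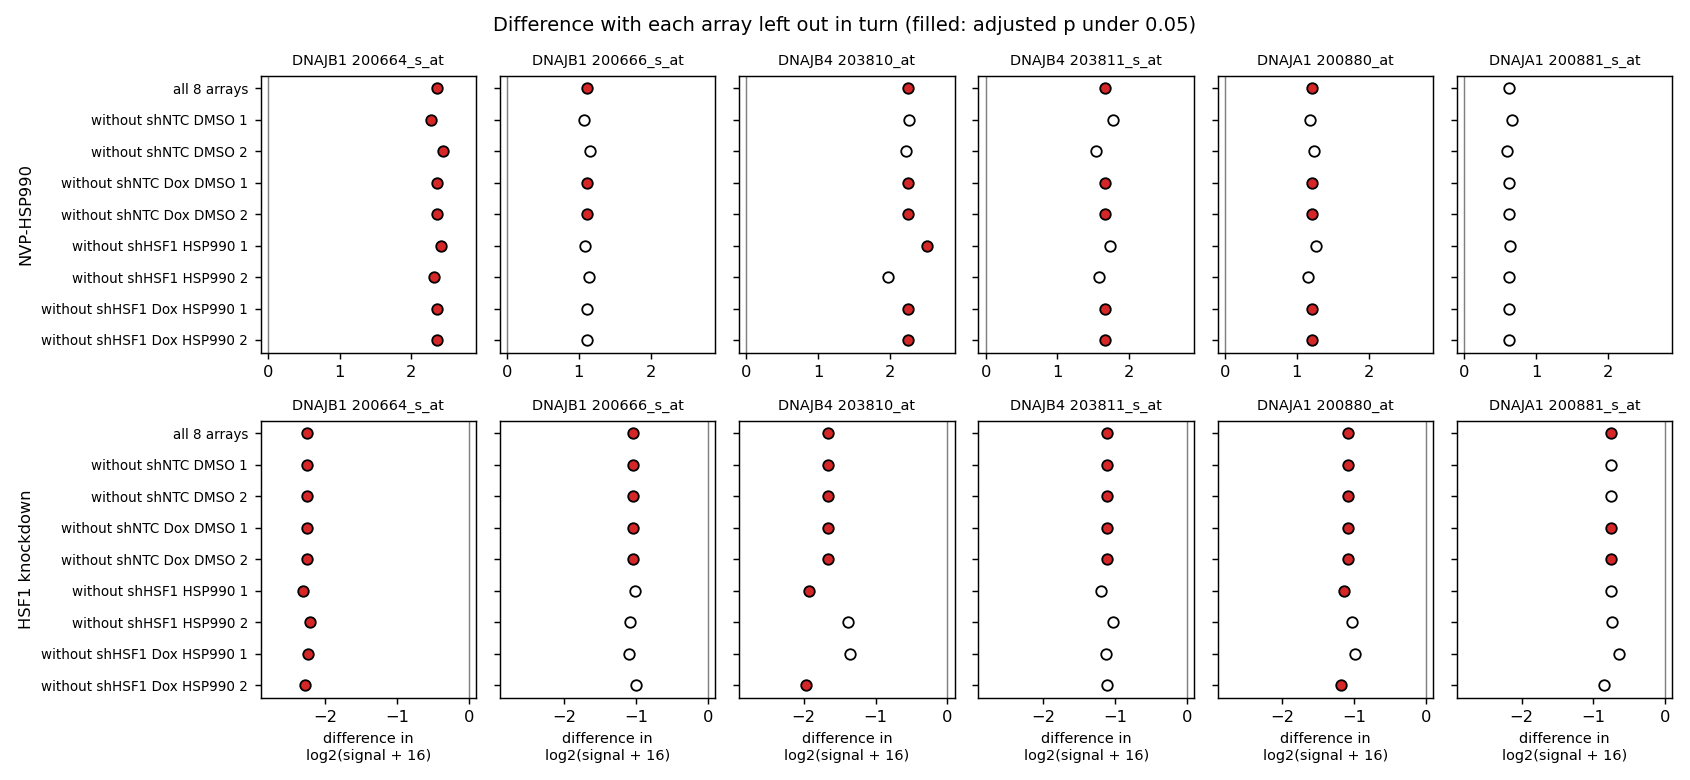
Difference in log2(signal + 16) with NVP-HSP990 (top row) and with the HSF1 knockdown (bottom row) for the 6 probe sets of DNAJB1, DNAJB4 and DNAJA1, with all 8 arrays and with each array left out in turn. Filled points have an adjusted p under 0.05. Every point keeps its direction, and only DNAJB1 200664_s_at is filled throughout in both rows, from 2.28 to 2.44 above and from -2.31 to -2.21 below.

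The 2 probe sets of DNAJB1 gave changes of unequal size, a difference that did not pass the test over all pairs. Within an array, DNAJB1 200664_s_at minus 200666_s_at was -2.50 and -2.41 on the log2 scale in shNTC DMSO, -2.50 and -2.91 in shNTC Dox DMSO, -1.29 and -1.13 in shHSF1 HSP990, and -2.49 and -2.34 in shHSF1 Dox HSP990. The gap between the probe sets was narrower in shHSF1 HSP990 than in the other 3 groups. The change of the difference was 1.25 with the inhibitor (95% interval 0.81 to 1.68) and -1.21 with the knockdown (95% interval -1.65 to -0.77). Over all 21129 pairs of probe sets of 1 gene, neither passed the threshold (limma adjusted p = 0.949 and 0.0875). For DNAJA1 the same quantities were 0.58 and -0.34, and for DNAJB4 they were 0.59 and -0.54. None of the 6 member pairs was called in either comparison, where 0% and 0.0521% of all pairs were. Of the 6 member pairs, 2 (DNAJB1 and DNAJA1) had an unadjusted limma p under 0.05 with the inhibitor and 1 (DNAJB1) with the knockdown. The share of all pairs below that level is not given here. With the knockdown the DNAJB1 pair was called without either shNTC Dox DMSO array (adjusted p = 0.0372 and 0.0373).

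**Figure D3:**
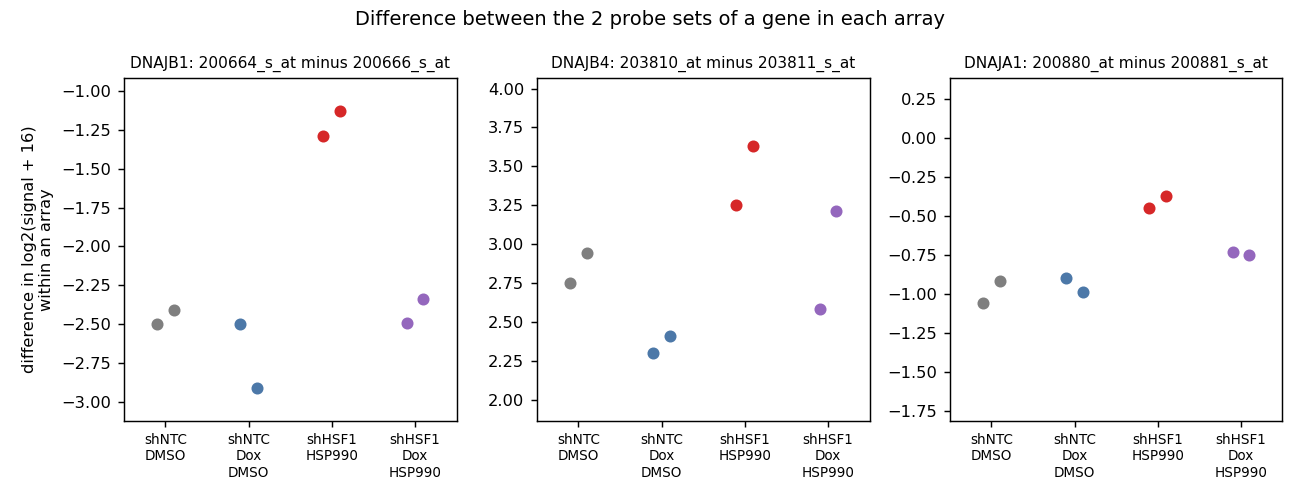
Difference in log2(signal + 16) between the 2 probe sets of a gene within each array, by group, for DNAJB1, DNAJB4 and DNAJA1. Each point is an array, and the axes span the same length. For DNAJB1 the shHSF1 HSP990 arrays lie at -1.29 and -1.13, and the other 6 between -2.91 and -2.34.

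DNAJB6 and DNAJB2, class B proteins known for keeping aggregation-prone proteins soluble, passed no test. DNAJB6 209015_s_at gave 1929.6 and 2134.2 in shNTC DMSO, 1829.3 and 2456.8 in shNTC Dox DMSO, 2649.1 and 2607.2 in shHSF1 HSP990, and 1785.5 and 1778.8 in shHSF1 Dox HSP990. The shHSF1 HSP990 arrays were the highest of the 8 and the shHSF1 Dox HSP990 arrays the lowest. The difference with the inhibitor was 1.29-fold (95% interval 0.993 to 1.68, adjusted p = 1.0), and with the knockdown the signal was 1.47-fold lower (95% interval 1.13 to 1.91, adjusted p = 0.16). The knockdown difference was called without either shNTC Dox DMSO array (adjusted p = 0.0394 and 0.0391) and after quantile normalization (0.0138). DNAJB2 202500_at gave 77.3 and 105.7 in shNTC DMSO, 93.3 and 88 in shNTC Dox DMSO, 93.8 and 83.5 in shHSF1 HSP990, and 60.1 and 49.8 in shHSF1 Dox HSP990. Its lowest signals were in shHSF1 Dox HSP990, 1.48-fold below shHSF1 HSP990 (95% interval 1.08 to 2.03, adjusted p = 0.24), and with the inhibitor its ratio was 0.981 (95% interval 0.715 to 1.35, adjusted p = 1.0).

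DNAJA2, a class A HSP40 that works with HSP70 in refolding, showed another order of groups. Its probe set 226994_at gave 398.3 and 456.8 in shNTC DMSO, 428.5 and 452.6 in shNTC Dox DMSO, 506.8 and 673.3 in shHSF1 HSP990, and 623.7 and 607 in shHSF1 Dox HSP990. Its probe set 209157_at gave 672.2 and 500.5, 746.6 and 456.3, 717.3 and 719.3, and 856 and 825.1 in the same order of groups. On both probe sets the 2 shHSF1 groups had higher means than the 2 shNTC groups. With the inhibitor 226994_at differed 1.36-fold (95% interval 1.04 to 1.77, adjusted p = 1.0) and 209157_at 1.23-fold (0.866 to 1.75, adjusted p = 1.0). With the knockdown the ratios were 1.05 (95% interval 0.804 to 1.38, adjusted p = 0.917) and 1.17 (0.82 to 1.66, adjusted p = 0.749).

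DNAJA3, a class A member known to work in mitochondria, and DNAJC7, which carries TPR repeats and binds both HSP70 and HSP90, had changes near 0. DNAJA3 1554078_s_at ranged from 1696.5 to 2374 and 205963_s_at from 867.5 to 1301, with all 4 extremes in shNTC Dox DMSO or shHSF1 HSP990. Their ratios with the inhibitor were 1.07 (95% interval 0.80 to 1.42) and 1.00 (0.735 to 1.37), and with the knockdown 0.904 (0.679 to 1.2) and 0.889 (0.653 to 1.21). DNAJC7 202416_at ranged from 1250.5 to 1689.6, with ratios of 0.986 (95% interval 0.757 to 1.28) with the inhibitor and 0.992 (0.761 to 1.29) with the knockdown. The dimmer DNAJC7 1556053_at ranged from 19.4 to 42.2. For the bright DNAJA3 and DNAJC7 probe sets the intervals for the inhibitor end below the 2.16-fold rise of DNAJB1 200666_s_at.

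**Figure D4:**
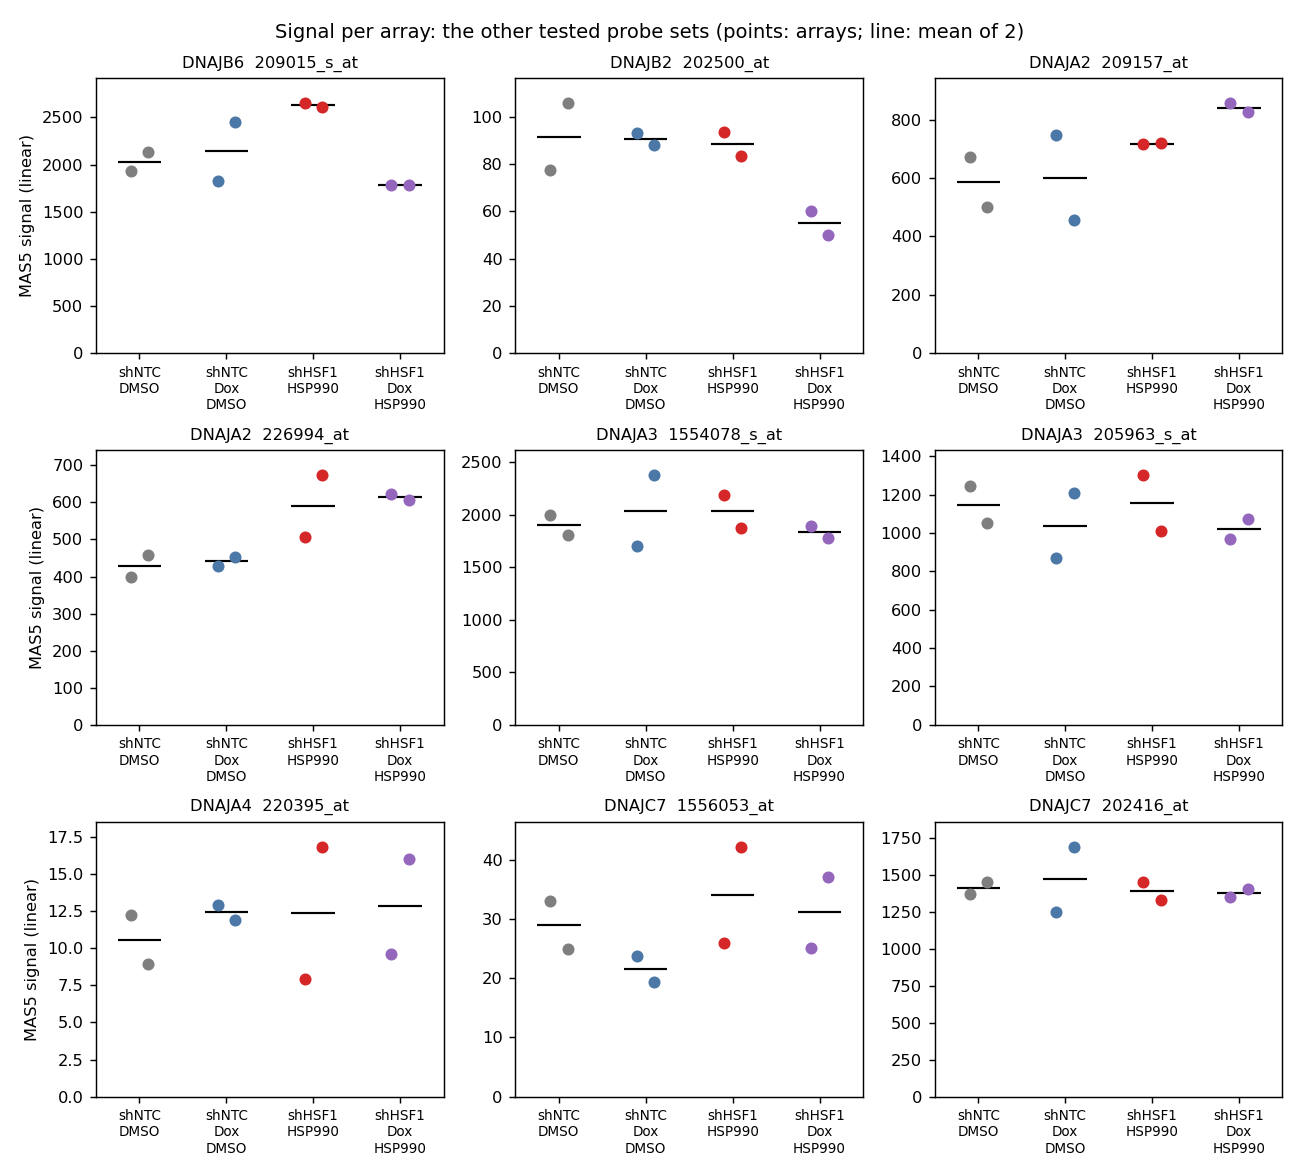
MAS5 signal (linear axis from 0) on each of the 8 arrays for the 9 tested probe sets of DNAJB6, DNAJB2, DNAJA2, DNAJA3, DNAJA4 and DNAJC7, by group. Points are arrays and lines the mean of 2 arrays. DNAJB6 has its highest arrays in shHSF1 HSP990 (2649.1 and 2607.2), and DNAJB2 its lowest in shHSF1 Dox HSP990 (60.1 and 49.8).

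DNAJA4 and DNAJB5 were at the limit of detection. DNAJA4 220395_at, tested because 5 arrays lay at or above their median, gave 12.2 and 8.9 in shNTC DMSO, 12.9 and 11.9 in shNTC Dox DMSO, 7.9 and 16.8 in shHSF1 HSP990, and 9.6 and 16 in shHSF1 Dox HSP990. These groups overlapped. The 6 untested probe sets were 3 of DNAJA4, both of DNAJB5 and DNAJC7 215252_at. The DNAJA4 ones ran from 0.2 to 7.6 and the DNAJC7 one from 3.7 to 12.4. DNAJB5, a class B relative of DNAJB1 and DNAJB4, had no tested probe set. DNAJB5 212817_at gave 11.1 and 7 in shNTC DMSO, 8.8 and 3.3 in shNTC Dox DMSO, 17.7 and 11.7 in shHSF1 HSP990, and 8.4 and 6.8 in shHSF1 Dox HSP990. DNAJB5 207453_s_at gave 4.6 and 4.4, 1.8 and 0.7, 8.6 and 7.2, and 0.6 and 1.7 in that order. Both DNAJB5 probe sets were highest in shHSF1 HSP990, at signals near or below the array medians. When all 41091 probe sets were tested, their knockdown differences were -0.37 (adjusted p = 0.517) and -0.48 (adjusted p = 0.0677).

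Without the hairpin against HSF1, Doxycycline itself moved no HSP40 probe set past the threshold. Between shNTC Dox DMSO and shNTC DMSO, 0 of 15 were called by limma and 0 had an unadjusted p under 0.05, where 0% of all tested probe sets were called and 561 had an unadjusted p under 0.05. The ratios with Doxycycline were 0.833 (95% interval 0.664 to 1.05) for DNAJB1 200664_s_at, 0.914 (0.629 to 1.33) for DNAJB4 203810_at and 1.03 (0.819 to 1.30) for DNAJA1 200880_at. The interaction asked whether the effect of Doxycycline differed between the shHSF1 arrays, all with the inhibitor, and the shNTC arrays, all with DMSO. It was called for 1 of 15 member probe sets, DNAJB1 200664_s_at, at -1.995 on the log2 scale (95% interval -2.46 to -1.53, adjusted p = 0.00867), where 0.463% of all were called, 0.166% higher and 0.296% lower. Without shNTC DMSO array 1 or 2 it was not called. The next were DNAJA1 200880_at at -1.13 (adjusted p = 0.062) and DNAJB4 203811_s_at at -1.48 (adjusted p = 0.0643).

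With HSF1 depleted and NVP-HSP990 present, no HSP40 probe set differed past the threshold from shNTC Dox DMSO. None of the 15 was called by limma, where 3.98% of all tested probe sets were, and 5 had an unadjusted p under 0.05, as did 4542 of the 24631 tested. DNAJB1 200664_s_at was 1.29-fold higher (95% interval 1.03 to 1.62, adjusted p = 0.218), and DNAJB4 203810_at 1.65-fold (1.13 to 2.39, adjusted p = 0.144). DNAJA1 200880_at had a ratio of 1.06 (0.842 to 1.34, adjusted p = 0.822). The intervals of DNAJB1 and DNAJB4 lie above 1, although neither passed the threshold after adjustment. The other probe sets with an unadjusted p under 0.05 were DNAJB2 202500_at, at a ratio of 0.664 (0.484 to 0.911, adjusted p = 0.154), and DNAJA2 209157_at and 226994_at, at 1.43 (1.00 to 2.03, adjusted p = 0.265) and 1.38 (1.06 to 1.81, adjusted p = 0.182). The summed signal of 18 fibroblast marker probe sets also moved with the induced hairpin, at 923.3 to 997 in shHSF1 Dox HSP990, 730 to 752.7 in shHSF1 HSP990 and 579.5 to 678.6 in the shNTC groups. Most of it was LUM 201744_s_at, with 756.3 and 708.2 against 373.5 to 460.3 on the other arrays, while DCN and PDGFRA stayed at 35.8 or lower. COL1A1 1556499_s_at went the other way, with 117 and 113.7 in shHSF1 HSP990 against 85.9 and 84.5 in shHSF1 Dox HSP990, as did PDGFRA 203131_at, with 22.2 and 16.2 against 14 and 7.6. The melanoma marker sum was 5158.7 to 5660.2 in shHSF1 Dox HSP990 and 6266.4 to 6302.5 in shHSF1 HSP990. In shNTC DMSO it was 5974.7 to 6691, and in shNTC Dox DMSO, which overlapped both shHSF1 groups, 5413.7 to 7427.1. Its largest part was VIM 201426_s_at, with 2763.1 and 2733.9 in shHSF1 Dox HSP990 against 3158.1 and 3210.5 in shHSF1 HSP990. S100B 209686_at was also lower, with 139.2 and 69.4 against 262.6 and 181.9. The MITF probe sets were divided. MITF 207233_s_at was higher, with 399.8 and 395.7 against 325.8 and 377. The brighter MITF 226066_at was lower, with 1600.7 and 1605.1 against 1642.2 and 1965.5. The part of these shifts in the knockdown results was not tested.

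**Figure D5:**
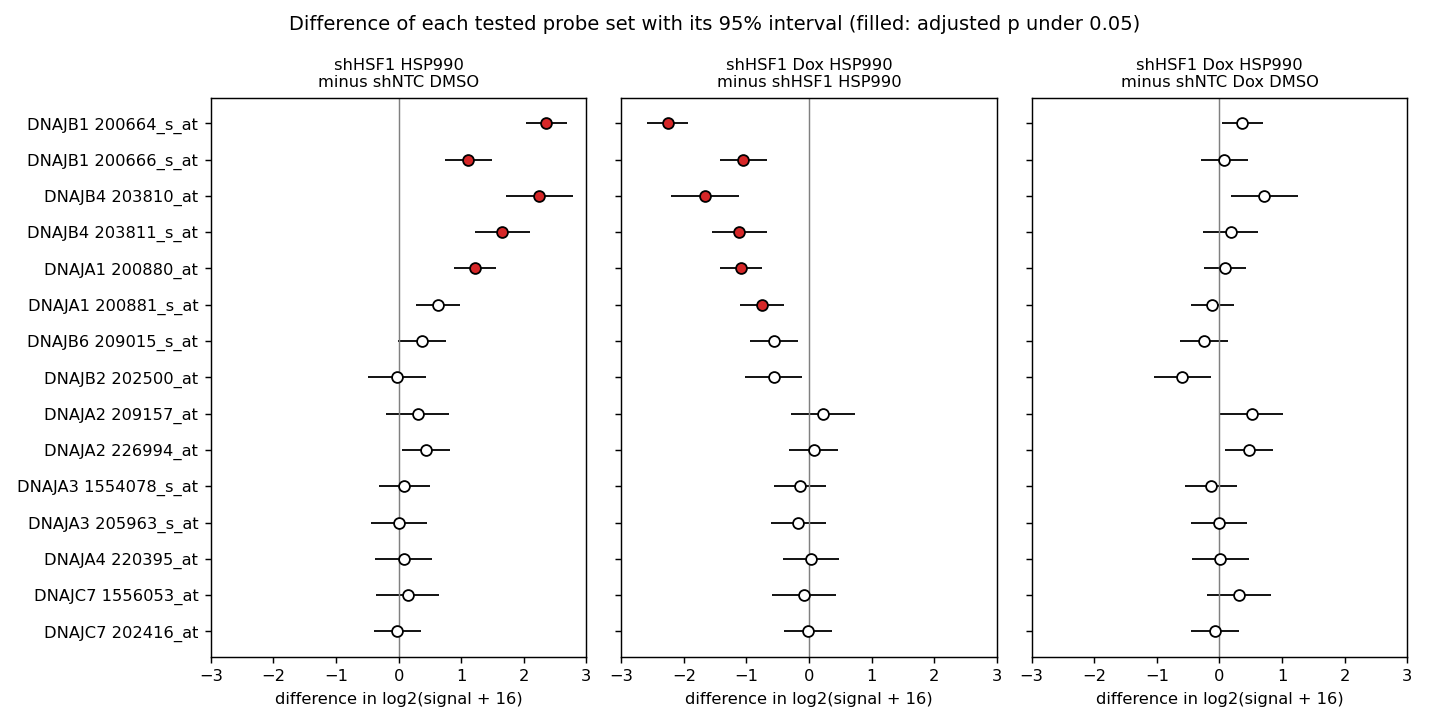
Difference in log2(signal + 16) of each of the 15 tested HSP40 probe sets with its 95% interval, for the inhibitor, for the knockdown and for shHSF1 Dox HSP990 against shNTC Dox DMSO. Filled points have an adjusted p under 0.05. There are 5 filled points at left, 6 in the middle and 0 at right.

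The groups' arrays did not overlap for 9 of the 15 probe sets with the inhibitor, all higher, where 16.8% of all tested probe sets were higher and 16.9% lower in this way. With the knockdown 8 were lower and 1, DNAJA2 209157_at, was higher, where 21.6% and 21.5% of all were. With Doxycycline in shNTC cells 1 was higher and 2 lower, beside 11.1% and 17.2% of all. Between shHSF1 Dox HSP990 and shNTC Dox DMSO 5 were higher and 2 lower, beside 23.2% and 20.3% of all.

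J-domain genes outside the members showed no called change. The other DNAJB genes, which include residents of the endoplasmic reticulum such as DNAJB9 and DNAJB11, had 11 tested probe sets from 4 genes, of which 0 were called by limma in any comparison. With the inhibitor their median log2 change was 0.09, 2 had an unadjusted p under 0.05, and the values ran from -0.42 to 0.55. With the knockdown the median was -0.04, 3 had an unadjusted p under 0.05, and the values ran from -0.45 to 0.50. The DNAJC and remaining J-domain genes had 69 tested probe sets from 27 genes, of which 0 were called by limma in any comparison. Their median was 0.0072 with the inhibitor and -0.02 with the knockdown, and 2 and 7 had an unadjusted p under 0.05. Of all 24631 tested probe sets, 1096 with the inhibitor and 3458 with the knockdown did. By limma 0.134% of all were called with the inhibitor, 1.88% with the knockdown and 0% with Doxycycline. The shares were 3.98% between shHSF1 Dox HSP990 and shNTC Dox DMSO and 0.463% for the interaction. At such shares few or no calls would fall in lists of this size, so their absence does not set these genes apart.

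Of the HSP70 genes and the factors that work with HSP70, those that were called moved in the same directions as DNAJB1, DNAJB4 and DNAJA1. Of 19 genes on this list, 16 had a single-symbol probe set, and HSPA1A, HSPA1B and HSPA8 had none. With the inhibitor 7 of 38 tested probe sets were called, all higher (18.4%), where 0.126% of all tested probe sets were called higher and 0.00812% lower. With the knockdown 11 were called, all lower (28.9%), where 0.536% of all were called higher and 1.34% lower. This list too was chosen with earlier results of these data known, so its shares are not independent support. The median log2 change of the 38 was 0.19 and -0.25. HSPA6, a strictly inducible HSP70, gave signals on 117_at of 8.2 and 5.6 in shNTC DMSO, 6 and 7.1 in shNTC Dox DMSO, 980.2 and 918.3 in shHSF1 HSP990, and 13 and 17.6 in shHSF1 Dox HSP990. It thus went from below the array median to well above it, by 5.40 on the log2 scale (adjusted p = 1.51e-06), a value that the added 16 holds down. BAG3, a nucleotide exchange factor of HSP70, gave 649.1 and 718.7, 601.1 and 794.7, 2510.3 and 2699.5, and 391.2 and 368.1 in the same order of groups. BAG3 rose 3.75-fold (adjusted p = 0.00219), fell 6.62-fold with the knockdown (adjusted p = 0.00013) and ended below shNTC Dox DMSO (log2 change -0.84, adjusted p = 0.0258). HSPH1, an HSP110 exchange factor, rose 4.95-fold on 235573_at (adjusted p = 0.0014), was not called on 206976_s_at (2.09-fold, adjusted p = 0.0881) or 208744_x_at (1.91-fold, adjusted p = 0.219), and fell with the knockdown on its 3 probe sets, by 2.40 to 7.45-fold. The HSP110 relative HSPA4L on both probe sets and the HSP70 HSPA1L were called in both comparisons. STIP1, which links HSP70 to HSP90, and the exchange factor BAG1 were called with the knockdown and not with the inhibitor, on 213330_s_at, 1 of 2 STIP1 probe sets, and 229720_at, 1 of 3 of BAG1. They were 2.15-fold and 2.22-fold lower (adjusted p = 0.0116 and 0.0156), the other probe sets of both genes were not called in either comparison, and whether this differs from the inhibitor comparison was not tested. BAG1 229720_at was also lower than in shNTC Dox DMSO (log2 change -0.79, adjusted p = 0.0488).

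The genes whose pattern over the 8 arrays was most like that of a moving HSP40 gene were ranked by Pearson's r of log2(signal + 16), as a description over 8 arrays that share the same 4 groups. For DNAJB1 200664_s_at the 5 highest were HSPA6 (r = 0.994), HSPA4L (0.994), FOS (0.989), HSPA1L (0.988) and DNAJA1 (0.987). For DNAJA1 200880_at they were HSPA6 (0.992), DNAJB1 (0.987), HSPA4L (0.986), ENGASE (0.983) and HSPA1L (0.979). DNAJB4 203810_at had other neighbours, HSPB8 (0.990), MXD1 (0.981), NRP2 (0.978), DDR2 (0.971) and ZFAND2A (0.967). The DNAJB4 neighbour ZFAND2A gave 417.8 and 371.5, 342.5 and 345.8, 1001.4 and 991.4, and 518.7 and 510.1 in the order of groups used above. It stayed higher in shHSF1 Dox HSP990 than in either DMSO group. The neighbours FOS and NRP2 were dim. FOS gave 22.5 and 21.9 in shHSF1 HSP990 and 7.5 to 9.3 on the other arrays. NRP2 gave 11.9 and 15.6 against 3.8 to 8.6. Both reached the array median in shHSF1 HSP990 alone. The filter thus kept them only through the group where DNAJB1 and DNAJB4 were high, so their r is no separate evidence of likeness.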

How the data were processed

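RNA of 8 A375 samples was amplified, biotin-labelled and hybridized to HG-U133 Plus2 arrays. The deposited values are linear signal intensities from MAS5 as run by the authors (version not given in the sources used here), scaled per array to a mean of 150 after 2% of probe sets were trimmed at each end. Groups follow the sample titles; description fields that name another experiment were not used. For arrays, their number limits the precision. Gene names came from the platform annotation: of 54675 probe sets, 41091 had a single symbol. Those at or above their array's median in at least 2 of 8 arrays (24631) were tested singly. The signal plus 16 was taken to log2 and fitted with limma 3.58.1 in R 4.3.3 as a means model over all 8 arrays, with a trend in the variances (4 residual and 6.05 prior degrees of freedom), two-sided, adjusted by Benjamini-Hochberg. Fold values are on the log2(signal + 16) scale and understate changes of dim probe sets. Pairs of probe sets of a gene were fitted alike. Named genes were the members, HSF1, called genes of the listed J-domain and HSP70 partner genes, and the 5 most correlated genes of each member called in both main comparisons; ZFAND2A's signals, the marker genes and ACTB were added as checks. Members and lists were chosen with earlier results of these data known. The fits were tested on simulated data. Alternatives were other added values, filters, normalizations, gene summaries and variance models, fewer arrays, a replicate block, a fold minimum and the methods' t-test.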

Additional observations from a re-analysis of the deposited data

Results flagged for a closer look

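DNAJB1 200664_s_at stood out because the effect of Doxycycline differed between the shHSF1 arrays (with the inhibitor) and the shNTC arrays (with DMSO) by -1.995 on the log2 scale, a difference tested as a limma interaction (adjusted p = 0.00867). The cells differ in both hairpin and compound, and which of them goes with the difference cannot be told apart.

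2 probe sets that the annotation gives to both TMEM135 and DNAJB6 were left out of the comparisons and carried a signal. The probe set 208810_at gave 1283.2 and 1214.9 in shNTC DMSO and 1745.3 and 1989.6 in shHSF1 HSP990, a log2 difference of 0.57. The probe set 208811_s_at gave 1018.1 and 772.5 against 1252.9 and 1351.5, a log2 difference of 0.54. In both, the shHSF1 HSP990 arrays lay above the shNTC DMSO arrays, as on the single-symbol DNAJB6 probe set. These differences were not tested, and 16.8% of all tested probe sets had arrays apart in this way. With the knockdown the log2 differences were -0.22 and -0.19. Between shHSF1 Dox HSP990 and shNTC Dox DMSO they were 0.39 and 0.46, where the single-symbol DNAJB6 probe set went the other way, at -0.25 (limma adjusted p = 0.495).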

How the results depend on the processing

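No called HSP40 result reversed its direction under the 21 other settings, 8 of which left out an array. The count with NVP-HSP990 (5 as reported) was 3 with no filter, with the 75th percentile filter and with each gene's probe sets averaged, 2 with the brightest probe set per gene and 0 with the methods' t-test. The knockdown count (6) was 4 with no filter and with only the comparison's own arrays, 3 with either gene summary and 0 with the methods' t-test. That t-test called nothing among all probe sets either, with 7 and 8 members at an unadjusted p under 0.05. How many of all probe sets lay below that level by this test is not given here, so these counts are no support. The gene summaries count genes, not probe sets. The interaction count (1) was 2 with 64 added, the 75th percentile filter, median centring, the gene mean and the replicate block, 4 after quantile normalization and 0 with the brightest probe set. The knockdown count of probe set pairs (0) was 1 after quantile normalization. Elsewhere the cause of a change was not tested. With each array left out, where the lone array of a group is assumed to vary like the others, the counts ran from 1 to 5 with the inhibitor, 1 to 7 with the knockdown, 0 to 2 for the interaction and 0 to 1 for knockdown pairs. The inhibitor count was 1 without shNTC DMSO array 1 or 2 or shHSF1 HSP990 array 2, and 2 without shHSF1 HSP990 array 1. The knockdown count was 1 without shHSF1 Dox HSP990 array 1 or shHSF1 HSP990 array 2, and 3 without the other array of either group. Without shNTC Dox DMSO array 2, which had the highest ACTB ratio, the counts were 5 and 7.

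With the replicate block the counts were 5 with the inhibitor, 6 with the knockdown and 2 for the interaction, the added call being DNAJA1 200880_at (adjusted p = 0.0252). Arrays of the same number deviated together most within a hairpin line. The correlation was 0.652 between the shHSF1 groups, which the knockdown compares, and 0.441 between the shNTC groups, which Doxycycline compares. Across the lines the correlations ran from -0.0661 to 0.225. The main fit did not pair the samples by these numbers, and the replicate block does. Of 1466 values of results not called, 18 were called under an alternative and 89 changed sign without being called. The t-test and the fit of a comparison's own arrays were not run for the interaction, nor centring and gene summaries for pairs.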
